A study of Mus musculus with 12 samples.

Results

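Splenic CD4+ T cells of mice with ligature-induced periodontitis (LIP group) were compared with those of mice without ligatures (CTL group) on day 2 of a culture that stimulates the T cell receptor. The comparison was defined from the sample labels alone, as the 3 LIP and 3 CTL libraries of day 2 among the 12 RNA-seq libraries of the series, and it covered every gene record that passed a filter on low counts, 14041 of 55414. The other 6 libraries hold CD4+ T cells of both groups on day 0, before culture, with no replicate number in common with day 2 within a group, and enter only where day 0 values or a fit of all 12 libraries are given. The study asked how experimental periodontitis alters the transcriptional profile of helper T cells at rest and after stimulation.

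All mice were male wild-type BALB/c mice aged 18 weeks, and the labels name no transgene or deletion in any group. In the LIP group, silk thread was tied around the second molars of the upper jaw on both sides, and CTL mice were anesthetized without a ligature. CD4+ T cells were enriched from the spleen by negative selection, which removes other cells by their markers and leaves the CD4+ T cells untouched, so that a remainder of other cells can stay in the culture. The labels give IL-2 at 10 ng/ml with anti-TCRβ and anti-CD28 antibodies at 1 µg/ml each, whereas the study's methods give other concentrations of IL-2 and anti-TCRβ. For single libraries, the treatment label of CTL 92 and of LIP 90 reads anti-CD28, that of CTL 93 and of LIP 96 reads anti-CD29, and that of the 2 libraries numbered 97 reads anti-CD30, so that each name occurs once in each group. The study's methods name anti-CD28 alone, so whether these labels mark different antibodies is uncertain, and any fit with the label as a block rests on that. The labels do not say whether the libraries came from separate animals, and the p-values therefore measure only the spread between these libraries, which may be technical.

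A T cell that receives signals through its antigen receptor, CD28 and the IL-2 receptor leaves rest, takes up amino acids and glucose, and divides. Type I interferons act on such cells through a receptor that activates the kinases JAK1 and TYK2, and a complex that holds STAT2 and IRF9 then binds interferon-stimulated response elements (ISRE) before antiviral genes. A lack of amino acids or other stress raises the transcription factor ATF4, which binds CCAAT/enhancer-binding protein-ATF response elements (CARE) and raises genes of amino acid synthesis, import and tRNA charging. The tumour suppressor p53 acts in parallel on genes that halt the cell cycle or promote cell death, and its activity is one of the recognized features of cellular senescence.

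The 6 libraries held 8691699 to 12866718 counts, so that 3 counts, taken as the limit of detection, corresponded to 0.241 to 0.358 CPM, the count scaled to library size with TMM factors. Cd4, the coreceptor that names the cells, was measured at 465, 589.7 and 446 CPM in CTL 92, 93 and 97 and 446, 381 and 453 CPM in LIP 90, 96 and 97, and 0 of the 7 tested CD4 T cell markers had an unadjusted p under 0.05. Cd8a had between 1 and 24 counts in a library, and S100a8 and S100a9, neutrophil genes, had 0 counts in every library. The summed level of the 15 markers of B and plasma cells was 23.5, 25.02 and 76.5 CPM in the CTL group and 22.8, 93.2 and 94.3 CPM in the LIP group, so that CTL 97, LIP 96 and LIP 97 were high and the groups overlapped. That of the 20 myeloid and dendritic markers was 83.5, 74.96 and 71.99 CPM against 84.7, 102 and 155 CPM, without overlap. In bulk RNA, fewer cells of a type and less RNA per cell cannot be told apart.

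LIP 90 stood apart from the other LIP libraries. The root mean square of the log2 differences over genes was 0.626 between LIP 90 and LIP 96 and 0.607 between LIP 90 and LIP 97, against 0.424 between LIP 96 and LIP 97, and it was only 0.481 to 0.57 between LIP 90 and the CTL libraries. The main lists and several leading genes are therefore given both over all 6 libraries and without LIP 90. This choice was made after the data were seen, and it leaves only LIP 96 and LIP 97 in the LIP group. Where LIP 90 lay near the CTL libraries, leaving it out makes small p-values likely by construction. Values without LIP 90 therefore describe LIP 96 and LIP 97 and are not separate support. The mean transcript length behind the counts was 5116 to 5239 bases in the CTL group and 4939 to 5048 bases in the LIP group, without overlap, and its part in the results was not tested beyond a fit corrected for GC content and length.

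No gene passed an adjusted p of 0.05 in edgeR's quasi-likelihood test over the 6 libraries (0 of 14041), the smallest adjusted p being 0.0568, shared by 7 genes. At an unadjusted p under 0.05 the test gave 2322 genes (16.5%), with 1170 higher (8.33%) and 1152 lower (8.2%) in LIP libraries. With a log2 fold change over 1 or under -1 as a second condition, 228 (1.62%) and 293 (2.09%) were left. DESeq2 gave 484 genes (3.45%) at an adjusted p under 0.05, 283 higher (2.02%) and 201 lower (1.43%). Leaving out LIP 90 gave 2014 of 14453 genes (13.9%), 1119 higher (7.74%) and 895 lower (6.19%). Leaving out any other single library gave 0 genes, or 1 without LIP 96. A fit of all 12 libraries, in which both days share 1 estimate of the spread, gave 446 genes higher and 329 lower at that threshold. In 2989 genes (21.3%) the libraries of the groups did not overlap, 1403 (9.99%) higher and 1586 (11.3%) lower in the LIP group. An exact permutation test of 3 against 3 libraries cannot give a two-sided p under 0.1, so no single gene could be tested in that way. In what follows, higher and lower in the LIP group stand for an unadjusted p under 0.05 over the 6 libraries, and genes said not to pass missed that threshold. In the fit of these 6 libraries the adjusted p was over 0.05 for every gene. Log2 fold changes are of LIP over CTL and are given with the standard error (SE), and CPM values follow the order CTL 92, 93 and 97 and LIP 90, 96 and 97.

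Interferon-stimulated genes, MHC class I genes, genes of amino acid supply and tRNA charging and ribosomal protein genes had positive medians, and the share of tested members that were higher lay between 48.7% and 81.7%, against 8.33% of all genes. The lists and their members were chosen with earlier results of these data known. The shares given here and below therefore describe the lists and do not test them. Targets of p53, cholesterol synthesis genes and inhibitory receptors had negative medians. The median log2 fold change over all 14041 genes was -0.01, and the median of its absolute value was 0.21.

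**Figure D1:**
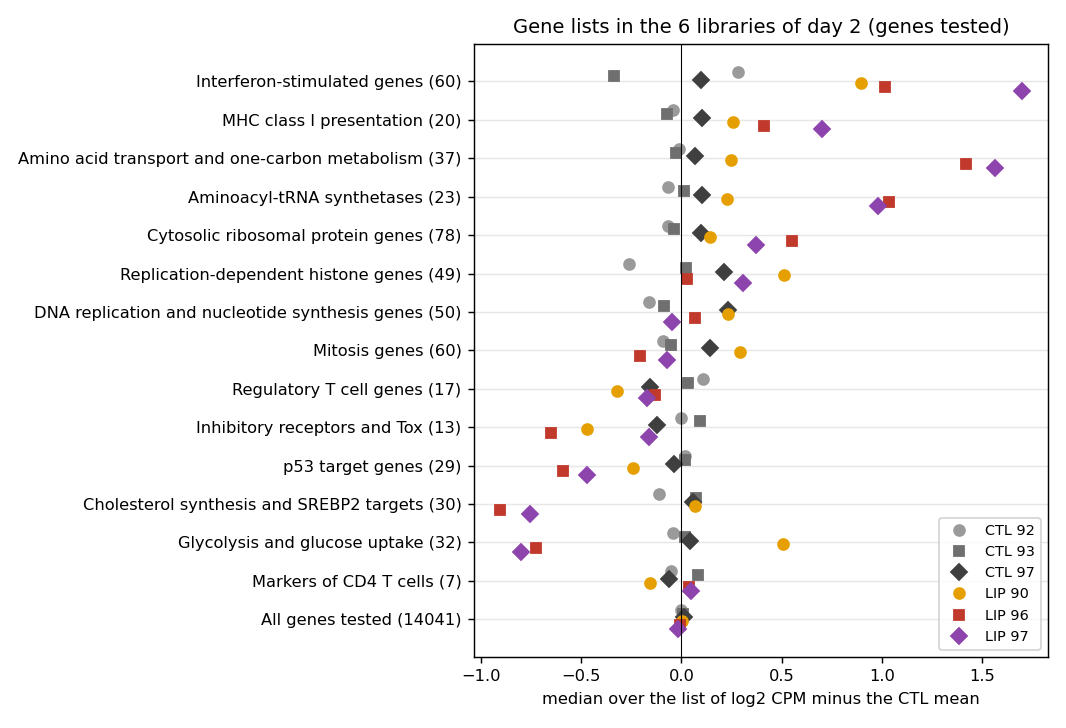
Median log2 difference of each library from the CTL mean, over the tested members of the lists named on the y axis, with all tested genes in the last row. The x axis is the median over the list of log2 CPM minus the CTL mean, and each point is 1 library, with CTL libraries in grey and LIP libraries in colour. The interferon list lies at 0.90, 1.01 and 1.70 in LIP 90, 96 and 97, while for the amino acid list LIP 90 lies at 0.24 and LIP 96 and 97 at 1.42 and 1.57.

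Most interferon-stimulated genes were higher in the LIP group. The list held 66 records, of which 60 passed the count filter. Of these 60, 49 were higher in the LIP group at an unadjusted p under 0.05 (81.7%, against 8.33% of all genes), 0 were lower, and 44 had groups that did not overlap (9.99% of all genes did so in this direction). The median log2 fold change was 1.23. Some members passed the filter only through their LIP counts, so the count was repeated over the 49 members with at least 10 counts in every library, and 38 of them were higher, with a median of 1.05. DESeq2 called 41 of the 60 at an adjusted p under 0.05, and without LIP 90 the quasi-likelihood test called 46 of the 60, 0 of them lower.

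The letters of the ISRE were looked for in the promoters, and its part in the difference between the groups was not tested. The ISRE was searched as GAAA, any 2 bases and GAAA again, on both strands (TTTC on the other), in the 250 bases before each gene start of RefSeq on GRCm38.p6, an older build than the GRCm39 of the counts. It was present in 978 of 32851 windows (2.98%) and in 301 of the 9424 tested genes that had a window (3.19%). Of the 60 interferon-stimulated genes, 42 had a window, under 80%, so that the check is void for the list and describes those genes only, and 23 of the 42 held the motif (54.8%). Among members higher in the LIP group the share was 18 of 34 (52.9%), and among the other tested members 5 of 8 (62.5%). The following stretches of 150 bases end at the gene start and carry the motif in capitals, on either strand. Isg15 (chr4:156200819-156200968, minus strand, with 3 overlapping matches), Oas1a (chr5:120907526-120907675, minus strand) and Ifit1 (chr19:34640739-34640888, plus strand) are shown as genes that were higher in the LIP group, and Igtp (chr11:58199406-58199555, plus strand) as a gene with the motif that was not.
Isg15: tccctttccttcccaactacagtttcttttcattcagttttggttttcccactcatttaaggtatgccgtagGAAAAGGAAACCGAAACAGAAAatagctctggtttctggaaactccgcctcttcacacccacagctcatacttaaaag
Oas1a: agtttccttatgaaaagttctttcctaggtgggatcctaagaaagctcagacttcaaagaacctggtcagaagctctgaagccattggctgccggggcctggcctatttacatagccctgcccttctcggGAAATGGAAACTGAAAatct
Ifit1: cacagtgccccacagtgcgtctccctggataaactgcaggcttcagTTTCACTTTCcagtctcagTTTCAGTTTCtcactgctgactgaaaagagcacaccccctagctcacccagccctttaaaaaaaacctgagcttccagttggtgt
Igtp: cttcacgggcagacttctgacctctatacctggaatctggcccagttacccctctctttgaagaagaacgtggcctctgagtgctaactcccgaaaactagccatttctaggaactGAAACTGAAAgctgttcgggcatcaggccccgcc
A match is a description of letters and not of a bound site, and the windows of Parp12 and Irf7 held no match.

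Among the transcription factors of the pathway, Irf7, which amplifies the response, was at 21.3, 6.12 and 10.4 CPM in the CTL group and 42.1, 65.5 and 137 CPM in the LIP group, with no overlap (log2 fold change 2.68 ± 0.52, adjusted p = 0.118). Stat2 was at 114, 67.2 and 76.03 CPM in the CTL group and 177, 174 and 264 CPM in the LIP group (log2 fold change 1.25 ± 0.24, adjusted p = 0.108), also without overlap. Irf9, the partner of STAT2, differed by 0.81 ± 0.25 (adjusted p = 0.191) with LIP 90 inside the CTL range. Irf1, which responds foremost to interferon-γ, was at 199.7, 217 and 289 CPM in the CTL group and 225, 262 and 279 CPM in the LIP group and did not pass the test (adjusted p = 0.76). Nmi, which binds STAT proteins, was at 15.7, 13.7 and 15.5 CPM in the CTL group and 27.5, 35.3 and 39.9 CPM in the LIP group (log2 fold change 1.19 ± 0.17, adjusted p = 0.0894). Irf7, Irf9 and Irf1 were chosen after their values were seen.

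Effectors of the response followed. Isg15 (chromosome 4, positions 156283883 to 156285303 on GRCm39), a ubiquitin-like modifier, was at 3.28, 1.20 and 2.18 CPM in the CTL group and 19.4, 23.7 and 51.1 CPM in the LIP group, with every LIP library above every CTL library (log2 fold change 3.79 ± 0.46, adjusted p = 0.0568). Without LIP 90 its log2 fold change was 4.05 with an adjusted p of 0.000285. Usp18, the protease that removes ISG15 and dampens the receptor, was at 14.001, 7.10 and 7.87 CPM in the CTL group and 48.7, 52.3 and 124 CPM in the LIP group (log2 fold change 2.94 ± 0.42, adjusted p = 0.0894). Here too LIP 97 was highest and no library of the groups overlapped. Ifi44 was at 9.17, 0.546 and 2.49 CPM in the CTL group and 46.5, 54.4 and 176 CPM in the LIP group (log2 fold change 4.46 ± 0.80, adjusted p = 0.108), and its CTL libraries spread more widely than those of Isg15. Parp12, an ADP-ribosyltransferase that acts on viral replication, was at 2.80, 1.53 and 2.07 CPM in the CTL group and 10.6, 8.72 and 13.1 CPM in the LIP group, with the LIP libraries close to each other (log2 fold change 2.32 ± 0.28, adjusted p = 0.0568).

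The sensors and enzymes of the 2'-5'-oligoadenylate pathway, which activates RNase L on double-stranded RNA, lay in the same direction. Oas1a was at 1.93, 0.437 and 0.621 CPM in the CTL group and 4.17, 7.96 and 22.5 CPM in the LIP group (log2 fold change 3.47 ± 0.73, adjusted p = 0.12), Oasl1 differed by 2.83 ± 0.36 (adjusted p = 0.0596) and Oas3 was at 61.6, 19.3 and 18.4 CPM in the CTL group and 164, 118 and 279.8 CPM in the LIP group (log2 fold change 2.49 ± 0.50, adjusted p = 0.118). Oas2, Oasl2 and Rsad2 failed the filter. Oas2 had 0, 0 and 3 counts in the CTL group and 9, 19 and 46 in the LIP group, and Rsad2, the antiviral enzyme viperin, had 4, 0 and 2 against 5, 18 and 41 counts. The other members that were not tested were Ifit1bl1, Ifit3b and Oas1g. Rigi, a sensor of viral RNA, differed by 1.12 ± 0.30 (adjusted p = 0.15) and Eif2ak2, the kinase PKR, by 1.56 ± 0.39 (adjusted p = 0.14), both without overlap, whereas Ifih1, the sensor MDA5, was at 59.96, 47.9 and 44.2 CPM in the CTL group and 118, 34.4 and 106 CPM in the LIP group and did not pass (adjusted p = 0.364). Oas3, Rigi, Eif2ak2 and Ifih1, with the members that failed the filter, were chosen after their values were seen.

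Of the 11 tested members that did not pass, 7 were GTPases of the families that respond to interferon-γ. Igtp was at 396, 432 and 508 CPM in the CTL group and 448, 425 and 532 CPM in the LIP group (log2 fold change 0.07 ± 0.15, adjusted p = 0.838) and Iigp1 at 270.2, 235 and 426 CPM in the CTL group and 380.3, 219 and 363 CPM in the LIP group (log2 fold change 0.05 ± 0.27, adjusted p = 0.951), in both cases with the groups interleaved. Tgtp1 and Tgtp2 differed by -0.27 and 0.09 (adjusted p = 0.504 and 0.827). Other GTPases of these families were higher. Of the 7 guanylate-binding proteins, Gbp2, Gbp3, Gbp5, Gbp6 and Gbp9 were higher by 0.77, 0.62, 0.52, 1.05 and 1.07 (adjusted p = 0.15, 0.213, 0.222, 0.15 and 0.14), as was Irgm1 (0.55, adjusted p = 0.233), while Gbp4 and Gbp7 did not pass (log2 fold changes 0.27 and 0.32, adjusted p = 0.476 and 0.483). Irgm2, Ly6e, Ifit2, Ifih1 and Irf1 complete the members that did not pass. Igtp, Iigp1, Tgtp1, Tgtp2, Gbp2, Gbp3, Gbp5, Gbp6, Gbp9, Irgm1, Gbp4, Gbp7, Irgm2, Ly6e, Ifit2, Ifih1 and Irf1 were chosen after their values were seen.

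**Figure D2:**
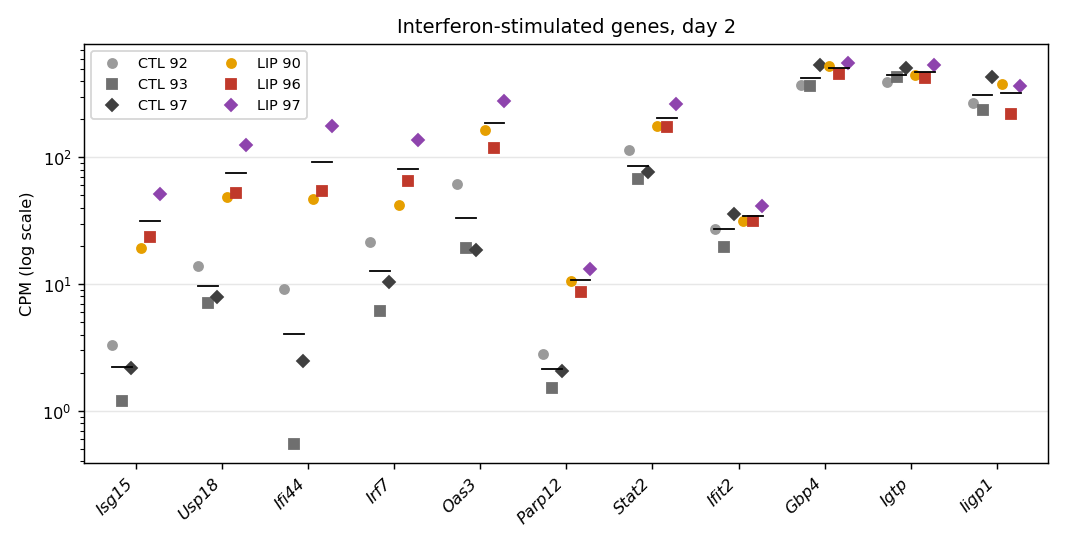
CPM of 11 interferon-stimulated genes in the 6 libraries of day 2. The y axis is CPM on a log scale, each point is 1 library and the horizontal bars are group means. Isg15, Usp18, Ifi44, Irf7, Oas3, Parp12 and Stat2 have every LIP library above every CTL library, while Ifit2, Gbp4, Igtp and Iigp1 interleave.

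Among the interferons, Ifnb1 was not detected and Ifng was lower in the LIP group. Ifnb1, which encodes interferon-β, had 0 counts in all 6 libraries, each of which allows up to 0.241 to 0.358 CPM. Ifng, which encodes interferon-γ, was at 37.1, 26.4 and 14.7 CPM in the CTL group and 19.1, 10.4 and 6.44 CPM in the LIP group, with LIP 90 inside the CTL range (log2 fold change -1.10 ± 0.42, adjusted p = 0.248). Without LIP 90 the difference was -1.59 with an adjusted p of 0.0209. The receptor chains Ifnar1 and Ifnar2 differed by 0.18 ± 0.14 (adjusted p = 0.552) and 0.42 ± 0.18 (adjusted p = 0.292), and Ifngr1, Jak1 and Tyk2 by 0.20, -0.15 and 0.24 (adjusted p = 0.637, 0.558 and 0.387). Ifng, Ifnar1, Ifnar2, Ifngr1, Jak1 and Tyk2, as well as Ifnb1, were chosen after their values were seen or because the study measured them by another assay.

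Mpeg1, a macrophage perforin that interferon also induces, was at 6.18, 1.86 and 6.73 CPM in the CTL group and 17.5, 14.7 and 43.99 CPM in the LIP group, without overlap (log2 fold change 2.34 ± 0.53, adjusted p = 0.128). It is 1 of the 20 myeloid and dendritic markers whose sum was given above, of which 5 were tested and 2 were higher, Mpeg1 and Ctss (log2 fold change 0.77 ± 0.29, adjusted p = 0.244). The other 15 failed the filter. Among them Lyz2 had 0 to 2 counts, while Csf1r had 6, 4 and 1 counts in the CTL group and 8, 12 and 11 counts in the LIP group. The interferon list had a median log2 difference of 0.90 in LIP 90. In that library the B cell marker sum was the lowest of the 6, at 22.8 CPM. Its myeloid and dendritic sum, at 84.7 CPM, lay above the highest CTL library, at 83.5 CPM. The day 0 median of the interferon list was 0.10, with 11 of 63 members higher and 2 lower at an unadjusted p under 0.05 (6.67% and 7.2% of all genes on that day). The part of other cells in the result was not tested beyond these values. Csf1r and Lyz2 were chosen after their values were seen.

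Most MHC class I genes, which present peptides from inside the cell, were higher, with smaller fold changes. All 20 members were tested, and 14 were higher and 0 lower at an unadjusted p under 0.05 (70.0%), with a median of 0.47. Without LIP 90, 16 of the 20 were called at an adjusted p under 0.05, all higher, and DESeq2 called 8. The nonclassical heavy chain H2-T22 was at 141, 125 and 103 CPM in the CTL group and 181, 194 and 198 CPM in the LIP group (log2 fold change 0.63 ± 0.14, adjusted p = 0.123), and no library overlapped. H2-Q6 and H2-T23 differed by 0.74 ± 0.17 (adjusted p = 0.135) and 0.82 ± 0.20 (adjusted p = 0.138), with LIP 96 and LIP 97 well above LIP 90 in both. The classical heavy chains H2-D1 and H2-K1 differed by 0.62 ± 0.19 (adjusted p = 0.184) and 0.51 ± 0.17 (adjusted p = 0.208). The class I heavy chains are near-identical copies, and the estimated counts can divide reads between them, so single heavy chains are uncertain. H2-D1 and H2-K1 were chosen after their values were seen.

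Several genes that load the class I molecule were higher. Tapbp, the tapasin of the loading complex, was at 284, 280.1 and 319.6 CPM in the CTL group and 417, 426 and 667 CPM in the LIP group (log2 fold change 0.77 ± 0.19, adjusted p = 0.14), and Tap1 and Tap2, the peptide transporter, differed by 0.56 ± 0.17 (adjusted p = 0.19) and 0.32 ± 0.13 (adjusted p = 0.286). The immunoproteasome subunits Psmb8, Psmb9 and Psmb10 were higher by 0.46, 0.37 and 0.55 (adjusted p = 0.162, 0.213 and 0.195), each without overlap. B2m, the light chain, was at 970.2, 1223 and 964 CPM in the CTL group and 1008, 1403 and 1589.8 CPM in the LIP group and did not pass (adjusted p = 0.408), nor did Nlrc5, the class I transactivator (adjusted p = 0.343). Tapbpl, Psme1, Erap1 and Calr did not pass either, with log2 fold changes of 0.39, 0.22, 0.04 and -0.27, so that Calr alone was negative (adjusted p = 0.303, 0.506, 0.905 and 0.495). Without LIP 90, B2m and Nlrc5 differed by 0.53 and 0.59 (adjusted p = 0.0358 and 0.0207). Tap1, Tap2, Psmb8, Psmb9, Psmb10, B2m, Nlrc5, Tapbpl, Psme1, Erap1 and Calr were chosen after their values were seen. The tested MHC class II genes, which antigen-presenting cells carry, gave 0 of 7 at an unadjusted p under 0.05.

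Genes of amino acid supply held some of the largest fold changes, and almost wholly in LIP 96 and LIP 97. The list of amino acid transport and one-carbon metabolism held 39 records, of which 37 were tested, and the 2 others were Slc7a2 and a second record of Ddit3 with 0 counts. Of the 37, 23 were higher (62.2%) and 0 lower, with a median of 1.23, and 16 were higher with groups that did not overlap (9.99% of all genes). Over the 34 members with at least 10 counts in every library, 20 were higher and the median was 0.89. Without LIP 90, 26 were called higher and 3 lower at an adjusted p under 0.05, and the median was 1.58. DESeq2 called 18, all higher. The median log2 difference from the CTL mean was 0.24 in LIP 90, against 1.42 in LIP 96 and 1.57 in LIP 97.

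The CARE, searched as TGATGNAA on both strands (TTNCATCA on the other), was present in 1134 of 32851 windows of 250 bases (3.45%) and in 224 of the 9424 tested genes with a window (2.38%). Windows that held both motifs with shared bases numbered 8 (0.0244%). Of the 37 amino acid genes 30 had a window (81.1%), and 4 of the 30 held the CARE (13.3%), all 4 among the 20 that were higher in the LIP group, while 0 held the ISRE. Of the 23 tRNA synthetase genes 16 had a window (69.6%, so the check is void for the list), and 3 of the 16 held the CARE (18.8%). The stretches of Asns (chr6:7693210-7693359, minus strand), Slc7a11 (chr3:50443614-50443763, minus strand, with 2 matches) and Gars1 (chr6:55037851-55038000, plus strand) are shown with the motif in capitals, from RefSeq on GRCm38.p6, and they end at the gene start.
Asns: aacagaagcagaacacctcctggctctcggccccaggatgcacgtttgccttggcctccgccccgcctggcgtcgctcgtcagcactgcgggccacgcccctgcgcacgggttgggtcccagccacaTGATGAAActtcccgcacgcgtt
Slc7a11: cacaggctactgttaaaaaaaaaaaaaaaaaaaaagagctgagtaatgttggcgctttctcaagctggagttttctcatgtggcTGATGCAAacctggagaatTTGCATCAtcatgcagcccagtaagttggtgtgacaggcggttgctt
Gars1: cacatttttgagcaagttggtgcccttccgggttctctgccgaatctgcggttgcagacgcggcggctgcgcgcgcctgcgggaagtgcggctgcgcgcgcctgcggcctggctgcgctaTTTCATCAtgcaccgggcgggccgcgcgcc
The 250-base windows of Trib3, Ddit3 and Atf4 held no match to these letters.

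Among the transcription factors of the list, whose part in the difference was not tested, Atf4 was at 141, 121 and 159 CPM in the CTL group and 173, 442 and 415 CPM in the LIP group. All LIP libraries lay above the CTL libraries, but LIP 90 only slightly (log2 fold change 1.29 ± 0.31, adjusted p = 0.139). Ddit3, the factor CHOP, was at 7.72, 7.10 and 9.32 CPM in the CTL group and 9.22, 85.4 and 78.9 CPM in the LIP group, with LIP 90 inside the CTL range (log2 fold change 2.84 ± 0.68, adjusted p = 0.138). Trib3, a pseudokinase that restrains ATF4, was at 3.28, 2.73 and 3.63 CPM in the CTL group and 5.61, 129 and 94.2 CPM in the LIP group (log2 fold change 4.56 ± 0.97, adjusted p = 0.12). Without LIP 90 the log2 fold changes of Ddit3 and Trib3 were 3.37 with an adjusted p of 2.2e-06 and 5.13 with an adjusted p of 1.3e-06. Atf3, a stress-induced partner of these factors, was higher in all 3 LIP libraries, at 123, 99.3 and 106 CPM in the CTL group and 174, 177 and 191 CPM in the LIP group (log2 fold change 0.72 ± 0.12, adjusted p = 0.101). Atf5 differed by 2.77 ± 0.65 (adjusted p = 0.133). Chac1, which degrades glutathione, was at 1.16, 1.53 and 0.518 CPM in the CTL group and 2.57, 38.02 and 37.2 CPM in the LIP group (log2 fold change 4.58 ± 0.96, adjusted p = 0.12), and Eif2s2, the beta subunit of the initiation factor eIF2, at 145, 142 and 142 CPM in the CTL group and 222, 312 and 296 CPM in the LIP group (log2 fold change 0.95 ± 0.15, adjusted p = 0.0997). Of the kinases that act on eIF2, Eif2ak2 was higher, as given above, whereas Eif2ak3 differed by -0.35 (adjusted p = 0.232) and Eif2ak4, the kinase GCN2, by -0.21 (adjusted p = 0.444). Atf4, Atf5, Eif2ak2, Eif2ak3 and Eif2ak4 were chosen after their values were seen.

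Enzymes that make amino acids followed. Asns (chromosome 6, positions 7671667 to 7728461 on GRCm39), which makes asparagine, was at 21.2, 17.05 and 17.5 CPM in the CTL group and 40.7, 252 and 266 CPM in the LIP group. LIP 90 lay above the CTL libraries, LIP 96 and 97 far above LIP 90, and the fitted difference was 3.32 ± 0.60 (adjusted p = 0.108), or 3.81 with an adjusted p of 9.26e-07 without LIP 90. Psat1, of serine synthesis, was at 127, 134 and 152 CPM in the CTL group and 179, 420.5 and 407 CPM in the LIP group (log2 fold change 1.28 ± 0.29, adjusted p = 0.128), and Phgdh and Psph of the same pathway differed by 1.08 ± 0.28 (adjusted p = 0.15) and 1.40 ± 0.36 (adjusted p = 0.15). Pycr1, of proline synthesis, was at 0.579, 0.874 and 1.04 CPM in the CTL group and 1.12, 20.6 and 16.2 CPM in the LIP group (log2 fold change 3.91 ± 0.94, adjusted p = 0.138). The mitochondrial one-carbon enzymes Mthfd2, Shmt2 and Aldh1l2 differed by 1.82, 1.23 and 4.54 (adjusted p = 0.139, 0.151 and 0.139). Psat1, Phgdh, Psph, Mthfd2 and Shmt2 were chosen after their values were seen.

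Several transporters were higher as well. Slc7a5 and Slc3a2, the chains of the large neutral amino acid transporter, differed by 1.88 ± 0.45 (adjusted p = 0.135) and 1.36 ± 0.34 (adjusted p = 0.14). Slc7a11, which imports cystine, was at 1.35, 1.97 and 1.66 CPM in the CTL group and 2.00, 12.8 and 10.7 CPM in the LIP group (log2 fold change 2.35 ± 0.62, adjusted p = 0.15), and Slc1a4, which carries alanine, serine and cysteine, at 2.99, 3.72 and 2.90 CPM in the CTL group and 4.81, 52.00 and 54.2 CPM in the LIP group (log2 fold change 3.52 ± 0.78, adjusted p = 0.126). Outside the list, Slc7a3, a carrier of cationic amino acids, and Slc6a9, a carrier of glycine, which were named for their difference between LIP 90 and LIP 96 and 97, had log2 fold changes of 4.98 and 4.14 (adjusted p = 0.124 and 0.14), and Slc6a9 was at 1.52, 47.2 and 44.9 CPM in the LIP libraries. Slc7a6, Slc43a1, Slc1a5 and Slc38a1, further carriers of the list, did not pass (log2 fold changes -0.06, -0.56, 0.39 and 0.23, adjusted p = 0.844, 0.517, 0.349 and 0.474), and Slc7a2 failed the filter. A few members went the other way without LIP 90. Mthfd1, Odc1 and Srm, of folate and polyamine metabolism, differed by -0.78, -0.81 and -0.64 (adjusted p = 0.0228, 0.00139 and 0.0442), while over all 6 libraries none of them passed (adjusted p = 0.583, 0.605 and 0.763). Mat2a, which makes S-adenosylmethionine, was at 203, 178 and 235 CPM in the CTL group and 202, 168 and 160.0 CPM in the LIP group (adjusted p = 0.491). Slc7a5, Slc7a6, Slc43a1, Slc1a5, Slc38a1, Mthfd1, Odc1, Srm and Mat2a were chosen after their values were seen.

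Aminoacyl-tRNA synthetases, which charge tRNAs with their amino acids, were all tested (23 of 23). Of these, 16 were higher (69.6%) and 0 lower, the median was 0.76, and 13 were higher with groups that did not overlap (9.99% of all genes). Without LIP 90, 15 were called higher and 3 lower at an adjusted p under 0.05. Nars1, for asparagine, was at 101, 98.1 and 108 CPM in the CTL group and 147, 441 and 463 CPM in the LIP group (log2 fold change 1.78 ± 0.37, adjusted p = 0.12). Tars1, Lars1 and Gars1, for threonine, leucine and glycine, differed by 0.92, 1.20 and 1.14 (adjusted p = 0.131, 0.131 and 0.133), and Cars1 and Yars1, for cysteine and tyrosine, by 1.61 and 1.38 (adjusted p = 0.14 and 0.14). Not every synthetase took part. Kars1, for lysine, was at 142, 173 and 174 CPM in the CTL group and 189.6, 161 and 196 CPM in the LIP group (adjusted p = 0.577), and Qars1 and Hars1 differed by 0.18 and 0.23 without passing (adjusted p = 0.48 and 0.363). Farsa, a phenylalanine synthetase subunit, and the scaffold proteins Aimp2 and Eef1e1 were the 3 called lower without LIP 90. Cars1, Yars1, Kars1, Qars1, Hars1, Farsa, Aimp2 and Eef1e1 were chosen after their values were seen.

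**Figure D3:**
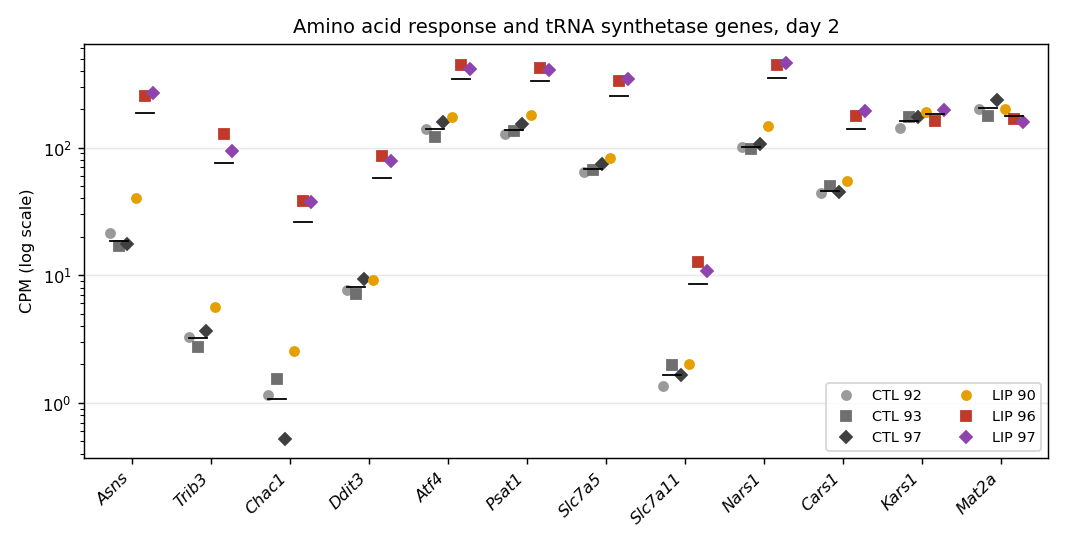
CPM of 12 genes of the amino acid response in the 6 libraries of day 2. The y axis is CPM on a log scale, each point is 1 library and the horizontal bars are group means. For Asns, Trib3, Chac1, Ddit3, Slc7a11 and Nars1 the points of LIP 96 and LIP 97 lie far above LIP 90, and Kars1 and Mat2a interleave.

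Outside these lists, Soat2, which esterifies cholesterol, was at 0.386, 0.656 and 0.621 CPM in the CTL group and 1.36, 39.2 and 29.7 CPM in the LIP group (log2 fold change 5.38 ± 1.15, adjusted p = 0.12), with 4, 6 and 6 counts in the CTL libraries. It was named for its fold change and for its difference between LIP 90 and LIP 96 and 97. Vegfa, a secreted growth factor of blood vessels, was at 17.6, 18.5 and 15.7 CPM in the CTL group and 27.1, 38.6 and 40.9 CPM in the LIP group, with no overlap (log2 fold change 1.04 ± 0.18, adjusted p = 0.101).

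Cytosolic ribosomal protein genes had small positive fold changes, and fewer than 1 in 2 passed. All 78 were tested, 77 had a positive log2 fold change, 38 were higher and 0 lower at an unadjusted p under 0.05 (48.7%), and the median was 0.36. Rpl35 was at 360.4, 476 and 431 CPM in the CTL group and 579, 745 and 645 CPM in the LIP group (log2 fold change 0.64 ± 0.15, adjusted p = 0.138), without overlap, and Rps7 and Rps18 differed by 0.68 and 0.79 (adjusted p = 0.15 and 0.157). These transcripts are short, and the mean transcript length was lower in every LIP library than in every CTL library, as given above. In the fit corrected for GC content and transcript length 40 were higher, with a median of 0.35. The count was 9 without CTL 92 or CTL 93, 10 without LIP 96, 24 without LIP 97 and 63 without LIP 90. Without LIP 90, 41 were called higher and 0 lower at an adjusted p under 0.05, and DESeq2 called 5. Nucleolar genes of ribosome biogenesis had 3 of 44 higher (6.82%, near the 8.33% of all genes) and 0 lower. Without LIP 90, 1 was higher and 10 lower at an adjusted p under 0.05 (7.74% and 6.19% of all genes).

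Replication-dependent histone genes had 12 of 49 higher and 0 lower (24.5%), with a median of 0.27. H3c10 was at 18.1, 17.5 and 20.4 CPM in the CTL group and 30.4, 30.4 and 32.5 CPM in the LIP group (log2 fold change 0.74 ± 0.13, adjusted p = 0.101), and H2ac8 and H2bc8 differed by 0.73 ± 0.17 (adjusted p = 0.131) and 0.75 ± 0.18 (adjusted p = 0.135). Without LIP 90, 3 were called higher at an adjusted p under 0.05. At the unadjusted threshold the count was 5 without CTL 92, 8 without CTL 93, 22 without LIP 96, with a median of 0.42, and 6 in the fit of all 12 libraries, where H3c10 had an adjusted p of 0.426. Histone genes are near-identical copies, and reads can be divided between them. DNA replication genes had 5 of 50 higher and 0 lower, close to the 8.33% of all genes, and mitosis genes 1 of 60 higher and 0 lower, with 0 higher and 6 lower at an adjusted p under 0.05 without LIP 90. Among DNA repair genes, 5 of 47 were higher (10.6%), also close to the share of all genes, for example Timeless, a fork protection factor (0.61, adjusted p = 0.15), Chek1, the replication checkpoint kinase (0.61, adjusted p = 0.155), and Rbbp8, the resection factor CtIP (0.72, adjusted p = 0.162). Respiratory chain genes encoded in the nucleus had 11 of 77 higher (14.3%) and 0 lower, against 7 higher and 5 lower at an adjusted p under 0.05 without LIP 90, and the one with the smallest p was Uqcrq, a complex III subunit, at 57.6, 62.3 and 59.2 CPM in the CTL group and 79.4, 125 and 108 CPM in the LIP group (log2 fold change 0.80 ± 0.17, adjusted p = 0.12).

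More than 1 in 2 targets of p53 were lower in the LIP group. Of 30 records 29 were tested (Gdf15 had 0 or 1 counts), and 17 were lower (58.6%, against 8.2% of all genes) and 2 higher, with a median of -0.46 and 15 members lower without overlap (11.3% of all genes). Without LIP 90, 15 were called lower and 2 higher at an adjusted p under 0.05, and DESeq2 called 7 lower. The 17 became 10 without LIP 96 and likewise 10 without LIP 97. The median log2 difference from the CTL mean was -0.24 in LIP 90, -0.59 in LIP 96 and -0.47 in LIP 97, so that LIP 90 took part to a smaller degree.

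Zmat3 (chromosome 3, positions 32388941 to 32420163 on GRCm39), an RNA-binding protein that p53 induces, was at 334, 341 and 324 CPM in the CTL group and 187, 129.8 and 131 CPM in the LIP group. Every LIP library lay below every CTL library (log2 fold change -1.16 ± 0.16, adjusted p = 0.0894), and without LIP 90 the difference was -1.33 with an adjusted p of 8.31e-05. Of the genes that promote cell death, Pmaip1, which encodes NOXA, was at 43.9, 42.9 and 38.8 CPM in the CTL group and 24.8, 19.3 and 16.6 CPM in the LIP group (log2 fold change -1.05 ± 0.16, adjusted p = 0.0997), Bax at 108, 117 and 127 CPM in the CTL group and 106, 62.7 and 63.5 CPM in the LIP group (log2 fold change -0.60 ± 0.21, adjusted p = 0.217) and the death receptor Tnfrsf10b at 55.6, 52.1 and 53.9 CPM in the CTL group and 42.7, 26.5 and 27.3 CPM in the LIP group (log2 fold change -0.74 ± 0.19, adjusted p = 0.142). None of these overlapped. Eda2r, a receptor of the tumour necrosis factor family, was at 9.75, 9.94 and 4.97 CPM in the CTL group and 1.84, 0.423 and 0.477 CPM in the LIP group, with LIP 96 and 97 near the limit of detection (log2 fold change -3.09 ± 0.52, adjusted p = 0.101). Of the genes that halt the cell cycle, Cdkn1a, the inhibitor p21, was at 239, 278 and 196 CPM in the CTL group and 189.9, 119.9 and 118 CPM in the LIP group (log2 fold change -0.74 ± 0.21, adjusted p = 0.171), with LIP 90 just under the lowest CTL library. Ccng1, which encodes cyclin G1, was at 749.7, 782 and 711 CPM in the CTL group and 662, 338 and 308 CPM in the LIP group (log2 fold change -0.78 ± 0.27, adjusted p = 0.218). Cdkn1a and Ccng1 were chosen after their values were seen.

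The gene of p53 itself, Trp53, was at 135, 174 and 177 CPM in the CTL group and 142, 136 and 153 CPM in the LIP group and did not pass (log2 fold change -0.18 ± 0.13, adjusted p = 0.551), and neither did its negative regulator Mdm2 (-0.28 ± 0.13, adjusted p = 0.318) or the death gene Bbc3 (-0.32 ± 0.22, adjusted p = 0.5). The repair gene Ercc5, listed among the targets, differed by -0.49 ± 0.12 (adjusted p = 0.139). Rrm2b, a ribonucleotide reductase subunit, and Sesn2, a sensor of leucine that ATF4 also induces, were the 2 targets that were higher, by 0.76 and 0.71 (adjusted p = 0.197 and 0.224), both with LIP 90 inside the CTL range. Bcl2, the inhibitor of BAX, was at 286, 231 and 266 CPM in the CTL group and 285, 598 and 455 CPM in the LIP group (log2 fold change 0.77 ± 0.24, adjusted p = 0.191). On day 0 Zmat3, Bax and Ccng1 differed by 0.12, -0.02 and -0.07 (adjusted p = 0.601, 0.972 and 0.754). Trp53, Mdm2, Rrm2b, Sesn2 and Ccng1 were chosen after their values were seen.

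**Figure D4:**
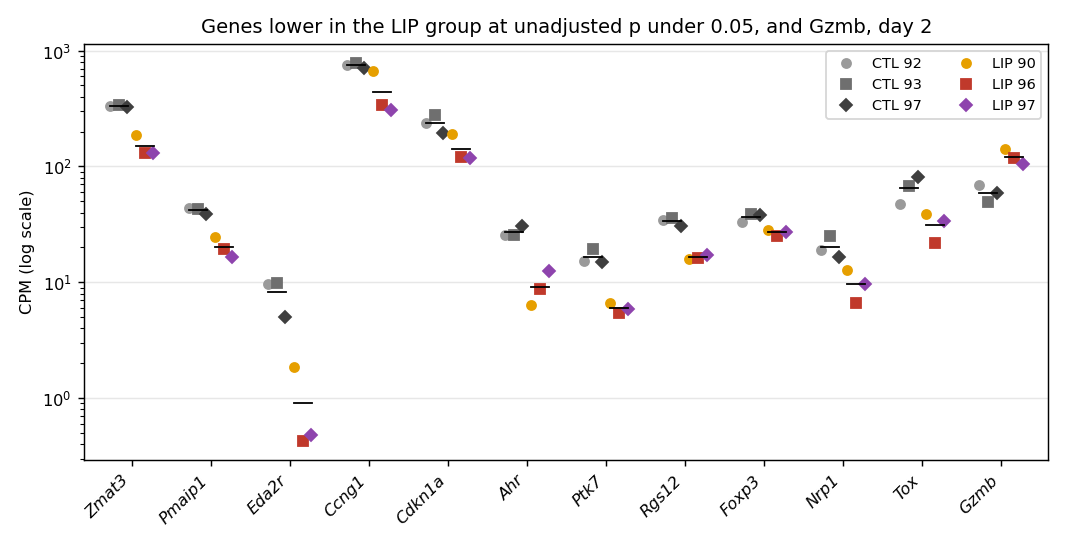
CPM of 11 genes lower in the LIP group at an unadjusted p under 0.05, and of Gzmb, in the 6 libraries of day 2. The y axis is CPM on a log scale, each point is 1 library and the horizontal bars are group means. For all 12 genes the libraries of the groups do not overlap, and Gzmb alone is higher in the LIP group.

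Some receptors and signalling genes of other function were lower in all 3 LIP libraries, which lay close to each other. Ptk7, a coreceptor of Wnt signalling, was at 15.4, 19.2 and 15.02 CPM in the CTL group and 6.66, 5.42 and 5.84 CPM in the LIP group (log2 fold change -1.47 ± 0.18, adjusted p = 0.0568). Lrp5, another Wnt coreceptor, was at 39.98, 46.4 and 43.5 CPM in the CTL group and 25.7, 23.3 and 21.8 CPM in the LIP group (log2 fold change -0.87 ± 0.13, adjusted p = 0.09), and Celsr2, an adhesion receptor of planar cell polarity, at 15.3, 18.9 and 17.2 CPM in the CTL group and 7.06, 7.20 and 6.80 CPM in the LIP group (log2 fold change -1.28 ± 0.16, adjusted p = 0.0568). Rgs12, which shortens G protein signals, was at 34.2, 36.2 and 30.7 CPM in the CTL group and 15.96, 16.3 and 17.3 CPM in the LIP group (log2 fold change -1.03 ± 0.13, adjusted p = 0.0568). LIP 90 lay near LIP 96 and 97 in all 4 genes, and without LIP 90 the log2 fold changes were -1.54, -0.92, -1.27 and -0.99 (adjusted p = 0.00131, 0.00211, 0.00208 and 0.00202).

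Eng, which encodes the TGF-β coreceptor endoglin, had 11.9 ± 1.21 CPM in the CTL group and 2.80 ± 0.438 CPM in the LIP group (log2 fold change -2.08 ± 0.21, adjusted p = 0.0568, with SD and n = 3 for each mean). Of 27 tested genes of TGF-β receptors and SMAD signalling, 4 were lower (14.8%, against 8.2% of all genes) and 2 higher (7.41%, against 8.33%), which is near those shares, with a median of -0.06. The others that were lower were Bmpr2, Acvr2a and Ltbp3 (log2 fold changes -0.66, -0.39 and -1.40, adjusted p = 0.152, 0.223 and 0.233), and those that were higher were Skil and Tgif1, both repressors of SMAD signalling (0.31 and 0.59, adjusted p = 0.271 and 0.271). Skil and Tgif1 were named once their values were known. Dnm3, a dynamin, and Dnm3os, the RNA transcribed from its opposite strand, were both lower (log2 fold changes -2.83 and -2.42, adjusted p = 0.0568 and 0.101). The library kit keeps strand, but the setting of the count is not given in the sources used here, so that reads of these overlapping genes may not be told apart. Ak1, an adenylate kinase, Sulf2, a heparan sulfate sulfatase, and Serpine2, a protease inhibitor, were lower too (log2 fold changes -3.06, -2.21 and -2.34, adjusted p = 0.101, 0.118 and 0.139). Cd81, a tetraspanin, was at 126, 145 and 129 CPM in the CTL group and 87.8, 54.6 and 67.1 CPM in the LIP group (log2 fold change -0.93 ± 0.17, adjusted p = 0.108).

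Genes of regulatory T cells and of inhibition were lower in part. Of the 17 regulatory T cell genes, all tested, 7 were lower and 1 higher (41.2% lower, against 8.2% of all genes), with a median of -0.25. The median was -0.14 without CTL 92 and -0.11 without LIP 90, the 7 became 4 without CTL 92 or LIP 96, and without LIP 90 3 were called lower and 2 higher at an adjusted p under 0.05. Foxp3, the factor that defines these cells, was at 32.8, 38.7 and 38.01 CPM in the CTL group and 28.5, 25.2 and 27.1 CPM in the LIP group (log2 fold change -0.44 ± 0.12, adjusted p = 0.168), without overlap. Ikzf2, which encodes Helios, and Nrp1, both marks of regulatory T cells from the thymus, differed by -0.46 ± 0.12 (adjusted p = 0.15) and -1.06 ± 0.26 (adjusted p = 0.139). Ebi3, a chain of interleukin-35 and interleukin-27, was the member that was higher, at 3.86, 2.62 and 3.21 CPM in the CTL group and 4.81, 10.2 and 6.91 CPM in the LIP group (log2 fold change 1.17 ± 0.32, adjusted p = 0.151). Il2ra, Ctla4 and Tnfrsf18 did not pass, with log2 fold changes of 0.07, -0.03 and 0.05 (adjusted p = 0.864, 0.959 and 0.837). Il2ra, Ctla4 and Tnfrsf18 were chosen after their values were seen.

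Of 16 records of inhibitory receptors and Tox factors, 13 were tested (Cd244a, Havcr2 and Klrg1 failed the filter), and 6 were lower (46.2%, against 8.2% of all genes) and 0 higher. Tox, a factor of T cell exhaustion, was at 46.9, 67.7 and 81.00 CPM in the CTL group and 38.5, 21.9 and 33.7 CPM in the LIP group (log2 fold change -1.05 ± 0.25, adjusted p = 0.135), and no library overlapped. Tox2, Cd160 and Btla, the last 2 being receptors of HVEM, differed by -0.94, -0.77 and -0.71 (adjusted p = 0.202, 0.138 and 0.187). Pdcd1, which encodes PD-1, was at 67.8, 81.6 and 67.9 CPM in the CTL group and 70.7, 38.4 and 49.6 CPM in the LIP group and did not pass (log2 fold change -0.45 ± 0.21, adjusted p = 0.332), while without LIP 90 the difference was -0.70 with an adjusted p of 0.0152. Lag3 was at 259.8, 313 and 251 CPM in the CTL group and 188, 458 and 369 CPM in the LIP group (adjusted p = 0.633) and, without LIP 90, was higher by 0.61 (adjusted p = 0.0195), as the only member called in that direction. Lag3 was chosen after its values were seen. At the unadjusted threshold 3 of the 13 were lower without CTL 92 and 4 without LIP 96 or LIP 97, and the median went from -0.39 to -0.25 without LIP 96. Without LIP 90, 4 members were called lower at an adjusted p under 0.05.

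Among the factors that set helper T cell lineages, 4 of 28 were higher (14.3%, against 8.33% of all genes) and 5 lower (17.9%, against 8.2%), with a median of 0.01, and without LIP 90 6 were called higher and 3 lower at an adjusted p under 0.05. Ahr, the aryl hydrocarbon receptor, was at 25.5, 25.8 and 30.5 CPM in the CTL group and 6.34, 8.81 and 12.4 CPM in the LIP group, without overlap (log2 fold change -1.58 ± 0.23, adjusted p = 0.0972), and without LIP 90 the difference was -1.36 with an adjusted p of 0.0017. Tbx21, Gata3 and Rora, factors of Th1, Th2 and Th17 cells, did not pass (log2 fold changes -0.30, -0.14 and 0.00, adjusted p = 0.436, 0.771 and 0.999). Bcl6, of follicular helper cells, was at 15.8, 26.3 and 13.4 CPM in the CTL group and 11.2, 5.34 and 12.0 CPM in the LIP group (log2 fold change -0.96 ± 0.34, adjusted p = 0.226). Batf3 was higher by 1.59 ± 0.43 (adjusted p = 0.152), at 2.15 CPM or less. Tbx21, Gata3, Rora and Bcl6 were chosen after their values were seen.

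Cytokine genes lay in both directions, with 6 of 21 tested higher (28.6%) and 3 lower (14.3%) among 29 records, against 8.33% and 8.2% of all genes, and 4 and 3 called at an adjusted p under 0.05 without LIP 90. Il2, the growth factor of T cells, was at 58.4, 62.8 and 50.3 CPM in the CTL group and 40.3, 5.34 and 15.9 CPM in the LIP group, with LIP 96 and 97 far below LIP 90 (log2 fold change -1.47 ± 0.55, adjusted p = 0.24), and without LIP 90 the difference was -2.46 with an adjusted p of 0.0023. Ccl5, a chemokine of memory and effector T cells, was at 4.25, 2.29 and 2.38 CPM in the CTL group and 8.02, 8.30 and 15.1 CPM in the LIP group (log2 fold change 1.79 ± 0.35, adjusted p = 0.114). Csf2, which encodes GM-CSF, and Osm, of the interleukin-6 family, were higher by 1.36 ± 0.36 (adjusted p = 0.15) and 0.54 ± 0.14 (adjusted p = 0.15). Il4 was at 8.79, 7.76 and 6.84 CPM in the CTL group and 10.3, 25.7 and 10.7 CPM in the LIP group (log2 fold change 1.00 ± 0.36, adjusted p = 0.224) and Il10 at 38.3, 19.6 and 10.98 CPM in the CTL group and 14.3, 9.15 and 9.54 CPM in the LIP group (log2 fold change -1.06 ± 0.41, adjusted p = 0.255), so that 1 library, LIP 96 for Il4 and CTL 92 for Il10, lay far from the rest. Il21 was at 59.4, 29.3 and 9.74 CPM in the CTL group and 42.7, 276 and 51.7 CPM in the LIP group (log2 fold change 1.91 ± 0.80, adjusted p = 0.284), again with LIP 96 highest. Tnf did not pass (0.20 ± 0.12, adjusted p = 0.42). Il4, Il10, Il21 and Tnf were chosen after their values were seen.

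Cytotoxic effector genes had 12 of 21 records tested, of which 3 were higher (25.0%) and 2 lower (16.7%), against 8.33% and 8.2% of all genes, and without LIP 90 5 were called higher and 1 lower at an adjusted p under 0.05. Gzmb, which encodes granzyme B, was at 68.9, 49.3 and 58.5 CPM in the CTL group and 140.0, 117 and 105 CPM in the LIP group, with no overlap (log2 fold change 1.04 ± 0.16, adjusted p = 0.0997). Klrk1, the receptor NKG2D, was at 5.50, 3.39 and 5.28 CPM in the CTL group and 16.3, 9.57 and 28.1 CPM in the LIP group (log2 fold change 1.91 ± 0.39, adjusted p = 0.118). Ctsw, a protease of cytotoxic cells, was instead lower, at 11.9, 18.4 and 19.5 CPM in the CTL group and 6.50, 4.57 and 5.48 CPM in the LIP group (log2 fold change -1.58 ± 0.24, adjusted p = 0.0992), and Nkg7 was at 10.0, 12.6 and 4.97 CPM in the CTL group and 2.89, 6.01 and 3.10 CPM in the LIP group (log2 fold change -1.19 ± 0.40, adjusted p = 0.208). Prf1, which encodes perforin, did not pass (adjusted p = 0.911), and Gzma was at 2.12, 0 and 10.6 CPM in the CTL group and 1.20, 41.8 and 8.94 CPM in the LIP group (adjusted p = 0.444). Of the 9 CD8 T and NK cell markers, 3 were tested and Eomes was higher (log2 fold change 0.91 ± 0.37, adjusted p = 0.274). Their summed level was 8.01, 6.67 and 15.9 CPM in the CTL group and 6.82, 56.8 and 19.7 CPM in the LIP group, with overlap. The part of CD8 T and NK cells in these genes was not tested. Prf1 was chosen after its values were seen.

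Genes of rest and homing gave 4 of 24 higher (16.7%) and 6 lower (25.0%), against 8.33% and 8.2% of all genes, and 4 and 3 at an adjusted p under 0.05 without LIP 90 (7.74% and 6.19% of all genes). Klf3 was at 69.3, 75.1 and 64.6 CPM in the CTL group and 50.8, 35.99 and 43.9 CPM in the LIP group (log2 fold change -0.68 ± 0.15, adjusted p = 0.124), and Tob1 and Bach2, both of which hold T cells in quiescence, differed by -0.59 ± 0.15 (adjusted p = 0.15) and -0.57 ± 0.16 (adjusted p = 0.171). Tcf7 and Lef1, factors of naive cells, did not pass (-0.29 and -0.29, adjusted p = 0.328 and 0.305). The members of this list that were higher are not named here. Outside it, among cytokine receptor genes, Il12rb2, the signalling chain of the interleukin-12 receptor, was higher by 0.70 ± 0.18 (adjusted p = 0.15), and Il10ra by 0.89 ± 0.23 (adjusted p = 0.15). Tcf7 and Lef1 were chosen after their values were seen.

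Glycolysis and cholesterol genes divided the LIP libraries from each other rather than the groups. Of the 32 members of the glycolysis and glucose uptake list, all tested, 1 was higher and 1 lower over the 6 libraries, with a median of -0.24. These are 3.12% each, against 8.33% and 8.2% of all genes. Without LIP 90, however, 21 were called lower and 0 higher at an adjusted p under 0.05, with a median of -0.75. The median log2 difference from the CTL mean was 0.51 in LIP 90 against -0.73 in LIP 96 and -0.80 in LIP 97. Bnip3, a mitochondrial target of hypoxia signalling that was named for this difference, was at 65.8, 55.8 and 68.7 CPM in the CTL group and 127, 20.2 and 12.6 CPM in the LIP group (log2 fold change -0.24 ± 0.70, adjusted p = 0.894). Slc2a3, the glucose transporter GLUT3, was at 155, 152 and 110.2 CPM in the CTL group and 222, 34.9 and 51.02 CPM in the LIP group (log2 fold change -0.44 ± 0.59, adjusted p = 0.748), and Tpi1, of glycolysis, at 561, 609.5 and 721 CPM in the CTL group and 1066, 217 and 203 CPM in the LIP group (log2 fold change -0.35 ± 0.57, adjusted p = 0.799). In all of these LIP 90 was the highest of the 6 libraries and LIP 96 and 97 were the lowest. Ldhb was lower in all 3 LIP libraries, at 59.8, 59.2 and 50.3 CPM in the CTL group and 36.4, 24.8 and 31.8 CPM in the LIP group (log2 fold change -0.86 ± 0.16, adjusted p = 0.108). The 1 member that was higher, Ero1a, is an oxidase of protein folding and not an enzyme of glycolysis (0.48 ± 0.15, adjusted p = 0.191). Slc2a3 and Tpi1 were chosen after their values were seen.

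The cholesterol list held cholesterol synthesis genes and other targets of the transcription factor SREBP2, among them genes of fatty acid synthesis such as Fasn. Of 30 tested (31 records), 4 were lower (13.3%, against 8.2% of all genes) and 0 higher over the 6 libraries. Without LIP 90, 22 were lower and 0 higher at an adjusted p under 0.05 (6.19% and 7.74% of all genes). The medians were -0.47 and -0.81. The 4 became 2 without CTL 92 and 0 without CTL 93, CTL 97, LIP 96 or LIP 97, and 14 with the labelled antibody as a block. Fasn, the fatty acid synthase, was at 621, 816 and 794 CPM in the CTL group and 643, 257 and 335 CPM in the LIP group (log2 fold change -0.85 ± 0.31, adjusted p = 0.229). LIP 90 lay inside the CTL range, which was also so for Acaca and Acat2 (-0.65 and -0.78, adjusted p = 0.282 and 0.292). Idi1, of isoprenoid synthesis, was at 347, 371 and 428 CPM in the CTL group and 440.4, 119 and 131 CPM in the LIP group and did not pass over the 6 libraries (adjusted p = 0.448), while without LIP 90 the difference was -1.59 with an adjusted p of 9.97e-05. Idi1 was chosen after its values were seen.

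**Figure D5:**
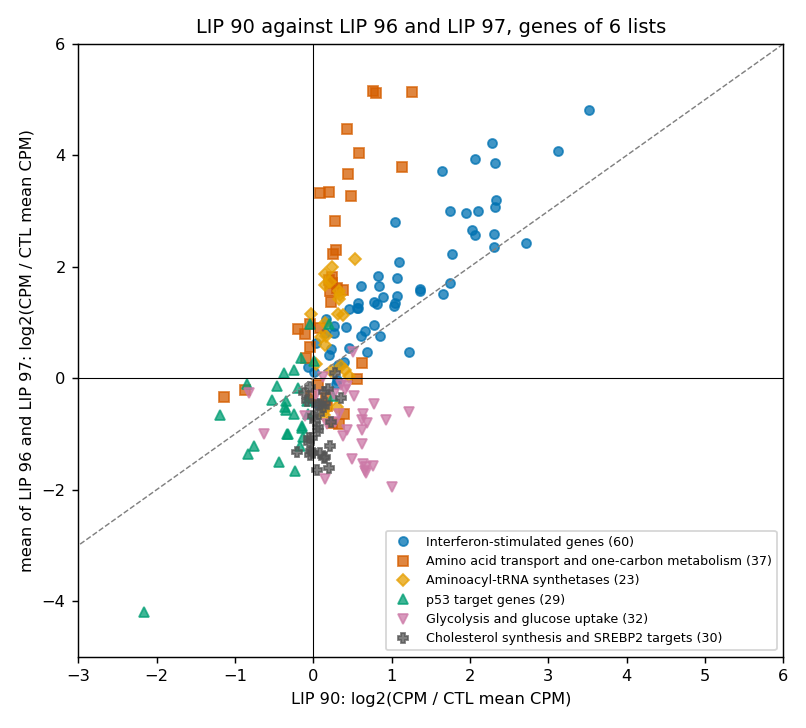
Genes of 6 lists in LIP 90 (x axis) against the mean of LIP 96 and LIP 97 (y axis), both as log2 of CPM over the CTL mean CPM. Each point is 1 gene, marked by its list, and the dashed line marks equal values. Medians in LIP 90 and in LIP 96 and 97 were 0.84 and 1.36 for interferon-stimulated genes, 0.24 and 1.56 for amino acid genes, -0.25 and -0.56 for p53 targets and 0.50 and -0.77 for glycolysis genes.

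LIP 90 therefore shared the direction of the interferon and p53 lists with the other LIP libraries, at smaller size, and was near the CTL mean for amino acid and cholesterol genes. Of the 60 interferon-stimulated genes 28 were over 1 on the log2 scale in LIP 90 and 38 in LIP 96 and 97, whereas of the 37 amino acid genes 2 were over 1 in LIP 90 and 20 in LIP 96 and 97. Of the genes named because LIP 90 lay furthest above LIP 96 and 97, Ak4, an adenylate kinase of mitochondria, was at 38.1, 33.5 and 50.3 CPM in the CTL group and 85.2, 9.65 and 8.82 CPM in the LIP group (log2 fold change -0.22 ± 0.75, adjusted p = 0.911), and Nrn1, a membrane-anchored protein, at 21.05, 27.8 and 18.5 CPM in the CTL group and 42.3, 2.46 and 8.46 CPM in the LIP group (log2 fold change -0.32 ± 0.76, adjusted p = 0.864). LIP 90 carries the anti-CD28 label together with CTL 92, and in a fit with the labelled antibody as a block 0 genes passed an adjusted p of 0.05, with 1839 at an unadjusted p under 0.05.

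On day 0, in other libraries of the same groups, the medians of several lists were nearer 0. The amino acid list had a day 0 median of -0.07, the tRNA synthetases -0.02, the p53 targets 0.01 and the class I genes 0.05. Ribosomal protein genes and the cholesterol list lay in the opposite direction on day 0. Of the 78 ribosomal protein genes, 31 were lower and 0 higher at an unadjusted p under 0.05 on day 0, with a median of -0.19. Of 30 genes of the cholesterol list, 14 were higher and 1 lower, with a median of 0.29 (6.67% of all genes were higher and 7.2% lower on that day). When the LIP effect was compared between the days over all 12 libraries, 8 of 15475 genes (0.0517%) passed an adjusted p of 0.05 in edgeR's interaction test, among them Parp12, Eif2s2, Zmat3 and Ctsw. The difference between days was not tested for the lists as a whole.

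A further list held genes of the proteins and transcripts that other assays of the study followed. Of its 12 records, 5 passed the count filter. Tnfsf8, which encodes CD153, was at 1172, 889 and 1059 CPM in the CTL group and 1329, 1923 and 1499 CPM in the LIP group (log2 fold change 0.61 ± 0.18, adjusted p = 0.175), without overlap, and without LIP 90 the difference was 0.74 with an adjusted p of 0.0151. Spp1, which encodes osteopontin, was at 3.19, 2.95 and 2.07 CPM in the CTL group and 2.57, 0.169 and 0.477 CPM in the LIP group (log2 fold change -1.28 ± 0.70, adjusted p = 0.398), and Glb1, the lysosomal β-galactosidase, at 58.9, 62.4 and 60.3 CPM in the CTL group and 49.2, 53.5 and 56.7 CPM in the LIP group (log2 fold change -0.19 ± 0.11, adjusted p = 0.428). Il6 had 0, 2 and 5 counts in the CTL group and 1, 17 and 8 counts in the LIP group, and Il1b, Mmp9 and Ccr6 had at most 4 counts in a library, so that no difference was detectable at this depth. Cx3cr1 had 15, 4 and 7 counts in the CTL group against 1, 9 and 2 in the LIP group, and Klrg1 at most 7 in a library.

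Of the list of senescence and secretory genes, 21 of 39 records were tested, with 6 higher (28.6%) and 3 lower (14.3%), against 8.33% and 8.2% of all genes. Without LIP 90, 5 were called higher and 4 lower at an adjusted p under 0.05, and the median went from 0.10 to -0.02. Beside Vegfa, Ccl5, Csf2 and Tnfsf8, which were higher, Igfbp7, a secreted binding protein, was at 1.83, 2.08 and 1.45 CPM in the CTL group and 0.401, 0.593 and 0.834 CPM in the LIP group (log2 fold change -1.57 ± 0.38, adjusted p = 0.139), and Cdkn1b, the inhibitor p27, was at 72.03, 61.7 and 59.97 CPM in the CTL group and 67.5, 96.4 and 91.6 CPM in the LIP group (log2 fold change 0.40 ± 0.16, adjusted p = 0.267), in the opposite direction to Cdkn1a. C3 and Timp2 were the remaining members at an unadjusted p under 0.05 besides Cdkn1a, with log2 fold changes of 1.42 and -0.50 (adjusted p = 0.193 and 0.191). C3 and Timp2 were chosen after their values were seen.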

How the data were processed

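RNA was depleted of ribosomal RNA and made into directional libraries. Per the labels, the authors trimmed reads with Trimmomatic 0.38, checked them with FastQC 0.11.9 and obtained estimated (expected) counts per gene with RSEM 1.3.0 and Bowtie2 on GRCm39. The deposited expected counts were rounded to whole numbers (73267 values were not whole), and 54749 of 55414 records were found in GENCODE M39. The authors' tables of comparisons, which hold CPM per library, fold changes, p-values, FDR, gene ontology terms and positions, were not used, and neither were 2 sample columns of theirs with no matching label.

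Genes were kept by filterByExpr, normalized by TMM and tested with edgeR 4.0.16 (quasi-likelihood, Benjamini-Hochberg over all genes tested) in R 4.3.3 with limma 3.58.1, with no covariate. The SE is the log2 fold change over the root of F, and CPM values are TMM-normalized. Log2 CPM for the lists used a prior count of 2. The limit of detection was set at 3 counts and covers counting error only. DESeq2 1.42.0 was the other tool. The test was checked on simulated data for LIP against CTL on day 2. There it recovered 60.7% of changes of 1 and 93.8% of changes of 2 on the log2 scale. Of the calls, 6.3% and 10.3% were false. With the real libraries the same test called 0 of 14041 genes at an adjusted p under 0.05. The rates therefore describe the simulated counts only, and the power of the test on the real libraries was not measured. Alternatives were RLE scaling, DESeq2, no filter, a minimum of 10 counts in each library, a single fit of all 12 libraries, the labelled antibody as a block, a correction for GC content and length by lowess (span 0.3), and leaving out each library in turn. No pair of libraries was a duplicate.

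Gene lists are described by counts and medians, with no test of a list. The lists and the members were chosen with earlier results of these data known. Named genes are the 10 highest and lowest log2 fold changes and the 10 lowest p-values in each direction among genes with a mean of at least 5 CPM and no overlap, up to 4 members of each list by p, genes the study measured or pictured, and the 5 genes at each end of the difference between LIP 90 and LIP 96 and 97. Genes from outside this rule are marked as picked with their values in view. Promoters came from RefSeq tables of GRCm38.p6. Tables and figures were made with Python 3.11.15, pandas 2.3.3, numpy 2.4.6 and matplotlib 3.10.9. Some members of the lists are counted but not reported here by name.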

Additional observations from a re-analysis of the deposited data

Results flagged for a closer look

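The difference between the LIP effect on day 2 and that on day 0 was past an adjusted p of 0.05 in edgeR's interaction test for 8 genes, and leaving out single libraries of day 2 gave 1 to 1596 such genes. The values are log2 differences of day 2 minus day 0.

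Parp12 had a difference of 2.42 ± 0.31 (adjusted p = 0.0136), from log2 fold changes of -0.09 on day 0 and 2.32 on day 2. Eif2s2 had 1.22 ± 0.17 (adjusted p = 0.0192), from -0.26 to 0.95. Zmat3 had -1.25 ± 0.19 (adjusted p = 0.0273), from 0.12 to -1.16, and Ctsw had -2.15 ± 0.31 (adjusted p = 0.023), from 0.59 to -1.58. The constitutive chaperones Hsp90ab1 and Hspa8 had 1.46 ± 0.13 (adjusted p = 0.000672) and 1.42 ± 0.19 (adjusted p = 0.0168), and for both the larger effect was on day 0, at -1.09 and -0.94, against 0.35 and 0.46 on day 2. Gm15459 had 1.3 ± 0.19 (adjusted p = 0.023) and Zfp512b had -0.94 ± 0.14 (adjusted p = 0.0263).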

How the results depend on the processing

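No paired analysis was possible because the groups share a single replicate number, 97, so the antibody label, once in each group but of uncertain meaning, was used in its place. With it as a block, 0 genes passed an adjusted p of 0.05 (1839 at an unadjusted p under 0.05), and likewise after correction for GC content and length (2334). At an adjusted p under 0.05, DESeq2 gave 283 genes higher and 201 lower, no filter on low counts 409 and 253, all 12 libraries 446 and 329, and at least 10 counts in every library 1 lower. At an unadjusted p under 0.05, no filter gave 1800 and all 12 libraries 1788 genes higher. Over 1 on the log2 scale, no filter gave 470 higher and 600 lower, and at least 10 counts gave 151 lower.

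Leaving out single libraries gave 0 to 1119 genes higher and 0 to 895 lower at an adjusted p under 0.05, with both maxima without LIP 90. At an unadjusted p the ranges were 629 to 2258 and 625 to 2056, over 1 on the log2 scale 188 to 479 and 221 to 564, without overlap 1768 to 3483 and 1984 to 3391, and for the interaction 1 to 1596. List medians ranged over 0.88 to 1.53 (interferon), 0.39 to 0.58 (MHC class I), 0.95 to 1.58 (amino acid), 0.63 to 1.02 (tRNA synthetases), 0.29 to 0.48 (ribosomal), -0.55 to -0.40 (p53), -0.81 to -0.29 (cholesterol) and -0.75 to 0.02 (glycolysis). The glycolysis median changed sign without LIP 96 (0.02) and without LIP 97 (0.003), and Mt1 and Anxa2 changed sign without LIP 90 (-1.31 and -0.63, in ranges that reach 1.501 and 0.44). The cause was not tested. Depth limits genes near 3 counts, or up to 0.358 CPM, in both groups.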

Other observations

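Some genes of endoplasmic reticulum stress, such as Sel1l and Herpud1, were high in LIP 96 and LIP 97 alone, while the list as a whole was not, its median log2 difference from the CTL mean being 0.20, 0.21 and -0.06 in LIP 90, 96 and 97. Of 30 records 28 were tested, and 8 were higher and 1 was lower at an unadjusted p under 0.05 (8.33% and 8.2% of all genes), with a median log2 fold change of 0.19, and without LIP 90 9 were called higher and 2 lower at an adjusted p under 0.05. Sel1l, an adaptor of the degradation of misfolded proteins, was at 91.2, 85.4 and 86.5 CPM in the CTL group and 99.5, 252 and 212 CPM in the LIP group (log2 fold change 1.10 ± 0.29, adjusted p = 0.15). Herpud1, of the same process, was at 28.2, 27.6 and 26.2 CPM in the CTL group and 22.7, 80.0 and 72.2 CPM in the LIP group (log2 fold change 1.09 ± 0.39, adjusted p = 0.225), with LIP 90 below the CTL libraries. Ppp1r15a, which restores translation after stress, differed by 0.81 ± 0.31 (adjusted p = 0.252), and Ern1, the sensor IRE1, by 1.00 ± 0.38 (adjusted p = 0.243). The chaperone gene Hspa5 was at 705, 632 and 679 CPM in the CTL group and 765, 878 and 758 CPM in the LIP group (adjusted p = 0.354). Herpud1, Ppp1r15a, Ern1 and Hspa5 were chosen after their values were seen. Antioxidant genes had 4 of 28 tested higher (14.3%) and 0 lower, against 8.33% and 8.2% of all genes. Without LIP 90, 3 were higher and 5 lower at an adjusted p under 0.05, and the median went from 0.09 to -0.09. Among those higher over the 6 libraries was Hmox1, which breaks down heme, at 5.02, 5.35 and 4.76 CPM in the CTL group and 6.01, 11.3 and 9.66 CPM in the LIP group (log2 fold change 0.83 ± 0.26, adjusted p = 0.191).

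Cytokine receptor and STAT genes had 10 of 40 tested higher (25.0%) and 1 lower (2.5%), against 8.33% and 8.2% of all genes, and 9 and 1 at an adjusted p under 0.05 without LIP 90 (7.74% and 6.19%). Beside Stat2, Il12rb2 and Il10ra, the receptor chains Il12rb1, Il15ra and Il10rb were higher, by 0.35, 0.50 and 0.57 (adjusted p = 0.26, 0.201 and 0.214). Pim2, a survival kinase, was the 1 that was lower, at 94.3, 97.03 and 76.1 CPM in the CTL group and 52.8, 61.2 and 73.2 CPM in the LIP group (log2 fold change -0.52 ± 0.16, adjusted p = 0.18), while Pim1 differed by 0.63 ± 0.23 (adjusted p = 0.232). In the death receptor and caspase list, with 2 of 30 higher (6.67%) and 3 lower (10.0%), close to the 8.33% and 8.2% of all genes, and 2 and 6 at an adjusted p under 0.05 without LIP 90, Mlkl, the effector of necroptosis, was at 21.7, 19.8 and 16.4 CPM in the CTL group and 26.5, 28.2 and 31.9 CPM in the LIP group (log2 fold change 0.58 ± 0.15, adjusted p = 0.15), and Ripk3, the kinase that activates it, at 66.6, 76.8 and 66.4 CPM in the CTL group and 65.5, 40.6 and 40.7 CPM in the LIP group (log2 fold change -0.51 ± 0.20, adjusted p = 0.252), in opposite directions. Apaf1, the core of the apoptosome, differed by -0.40 ± 0.12 (adjusted p = 0.184). Il12rb1, Il15ra, Il10rb, Pim1 and Ripk3 were chosen after their values were seen.

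Among the pocket proteins that restrain entry into S phase, Rbl2, which is typical of resting cells, was at 210.3, 169.7 and 156 CPM in the CTL group and 123, 128 and 119 CPM in the LIP group (log2 fold change -0.53 ± 0.13, adjusted p = 0.142), and Rbl1, which rises in dividing cells, was at 146, 127 and 161 CPM in the CTL group and 165, 244 and 228 CPM in the LIP group (log2 fold change 0.55 ± 0.17, adjusted p = 0.188). The G1 list as a whole had 2 of 25 tested higher and 2 lower (8.0% each, close to all genes). Among immediate early factors, Fosb and Jund were lower (log2 fold changes -1.62 and -0.49, adjusted p = 0.15 and 0.218) and Klf10 was higher (0.67, adjusted p = 0.208). In that list 3 of 26 were higher and 3 lower (11.5% each, near the 8.33% and 8.2% of all genes). Chemokine receptor Ccr4 and integrin Itga6 were lower by similar amounts, at 343, 379 and 445 CPM in the CTL group and 310.0, 242 and 265 CPM in the LIP group (log2 fold change -0.51 ± 0.15, adjusted p = 0.171) and 185, 208 and 174 CPM in the CTL group and 155, 106 and 148 CPM in the LIP group (log2 fold change -0.47 ± 0.16, adjusted p = 0.213).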
